A study of Ostrinia furnacalis with 9 samples.

Results

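In heads of Asian corn borer larvae (Ostrinia furnacalis, a moth), 1886 stretches of the genome carried a called peak of the histone mark H3K9me3 at pre-diapause and no called peak of either repressive mark at any other point of the study. They were chosen by joining all peaks of the 6 deposited peak lists that shared at least 1 bp into places, with the single sequence of NC_ name left out, and keeping the places with a peak in the pre-diapause H3K9me3 list and in none of the 5 other lists. They were 1886 of 10958 places, or 17.2%, and 1886 of the 7225 scaffold peaks of their own list, or 26.1%. Both shares follow from the rule and were not tested. Each member was 1 peak, so a member's fold, −log10 q and width are those of that peak in the authors' list, and nothing about the member was called in the other lists.

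The study profiled larval heads by ChIP-seq, which sequences DNA recovered with an antibody, here against H3K9me3 or H3K27me3, at 3 stages. Diapause larvae had been kept from the start of the fourth instar at 20 °C under short days (light for 12 h, dark for 12 h) for 30 days or longer, and pre-diapause larvae for 20 days in the same regime. For non-diapause larvae no rearing beyond that of the stock is given, which was 27 °C, 65% humidity and long days (light for 16 h, dark for 8 h). Temperature, day length and age can therefore not be told apart from stage between non-diapause and the others. Between pre-diapause and diapause, time in the regime, and with it age, can likewise not be told apart from stage. The stock was collected as larvae in a corn field, no strain or genetic change is given, and the sources used here do not say how many heads went into a library. Each mark and stage had 1 peak list, and the 3 inputs had none. With 1 list a group there is no replicate error to set a difference against, so nothing was tested and the text holds no p-values. The intervals are exact 95% binomial intervals (Clopper-Pearson for shares, order statistics for medians), cover counting error only and treat neighbouring peaks as independent. Peak lists hold no expression values, so the labelled tissue could not be checked against markers, and the depth of the libraries is unknown.

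H3K9me3 is trimethylation of lysine 9 of histone H3, laid down in Drosophila by the enzymes Su(var)3-9 and Eggless and bound by heterochromatin protein HP1. It is best known from constitutive heterochromatin and from silenced transposons. H3K27me3 is laid down by a Polycomb repressive complex and is best known from silenced developmental genes. Diapause is a hormonally controlled arrest of development that insects prepare for before the arrest begins.

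As a group the members were weaker and narrower than the rest of the pre-diapause H3K9me3 list. Their median fold, the authors' enrichment of the immunoprecipitated library over its background within the peak, was 2.80 (2.77–2.84), against 3.62 (3.59–3.66) for the 5339 other peaks of the list. Their median −log10 q, the peak caller's evidence that a peak is above background, was 4.15 (4.02–4.29), against 7.62 (7.49–7.79). Their median width was 453.5 bp (438–467), against 572 bp (561–586). The middle 50% of the members had folds between 2.33 and 3.25, against 2.86 and 4.58 for the other peaks, so the distributions overlapped widely. A −log10 q of at least 3 was reached by 1503 members, or 79.7% (77.8–81.5), against 95.6% (94.97–96.1) of the other peaks and 91.4% of the whole list. The rule used these calls, so the contrast describes what was selected. In all, the members covered 1.12 of the 5.23 Mb of scaffold sequence under pre-diapause H3K9me3 peaks.

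High folds were rare among the members and low folds were more frequent than in the rest of the list. No member had a fold over 7, whereas 277 other peaks, or 5.19% (4.61–5.82), did. A count of 0 among 1886 members allows a share of up to 0.195% by the same exact interval. Members with a fold over 4 numbered 121, or 6.42% (5.35–7.62), against 38.6% (37.3–39.9) of the other peaks. At the low end 192 members, or 10.2% (8.85–11.6), had a fold under 2, against 5.45% (4.86–6.09). The share of members among the peaks was highest between folds of 2 and 2.5, at 44.2% (41.1–47.4), and was 39.8% (35.4–44.3) below 2. Between 4 and 5 it was 8.92% (7.33–10.7), and between 5 and 7 it was 2.59% (1.59–3.97).

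Split by −log10 q into 10 parts of equal size, the list held more members in each weaker part. The strongest 10% of the peaks held 13 members, or 1.80% (0.962–3.06). The fifth part held 125, or 17.3% (14.6–20.3), and the weakest 10% held 448, or 62.0% (58.3–65.5). So more than 1 in 3 peaks in the weakest 10% still had a partner in another list, and members were found in every part.

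**Figure D1:**
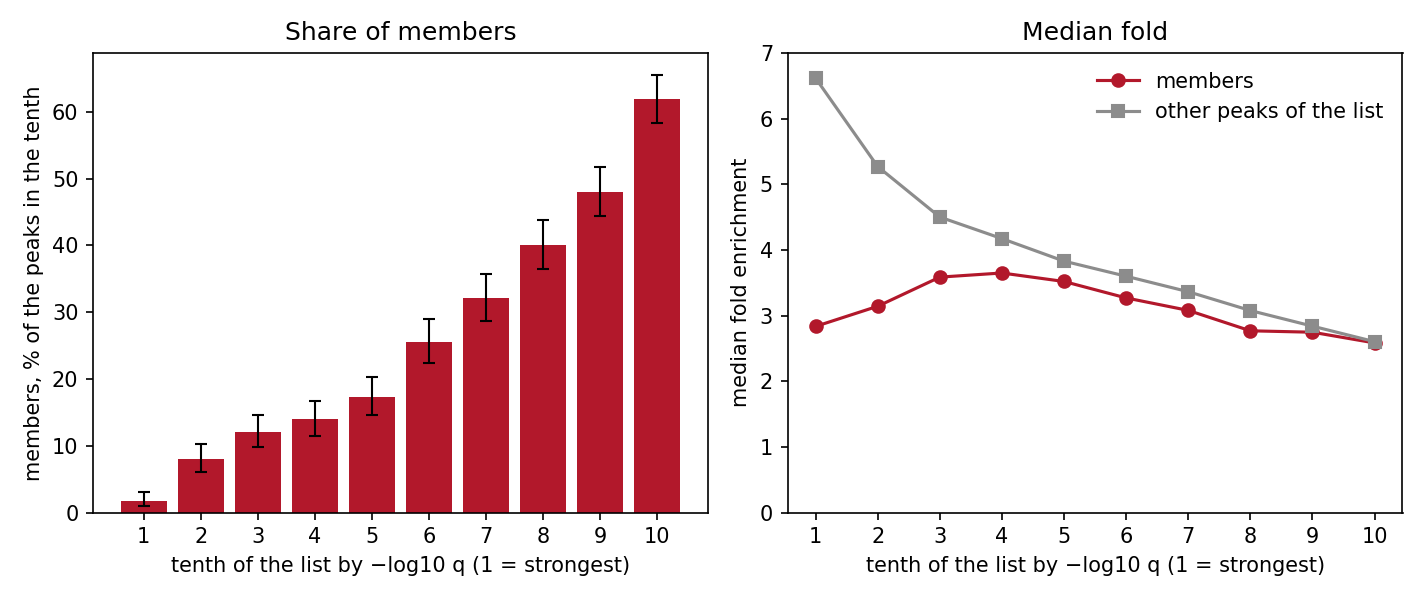
Left, the share of members among the peaks of the pre-diapause H3K9me3 list in each of 10 parts by −log10 q, part 1 being the strongest, with exact 95% binomial intervals; right, the median fold of the members and of the other peaks in each part. The share climbs in every step, from 1.80% in part 1 to 62.0% in part 10, and the 2 lines of median fold meet only in the weakest parts.

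Within the strong parts of the list the members had lower folds than the other peaks. In the strongest 10% the median fold was 2.84 in the 13 members and 6.62 in the 709 other peaks. All 13 lay between 1.75 and 4.29, and 153 of the 709 other peaks were at or below that upper value. The other peaks reached a −log10 q of 284.9, beyond the members' 35.4. Over the −log10 q range of the 13 members, 18.9 to 35.4, the 509 other peaks had a median fold of 6.34, with a median −log10 q of 21.5 in the members and 23.6 in these other peaks. The gap narrowed down the list. It was 3.14 against 5.27 in the second part, 3.52 against 3.83 in the fifth and 2.58 against 2.60 in the weakest. Widths differed in the same parts, with a median of 330 bp in the 13 members and 815 bp in the other peaks of the strongest 10%, and 523 against 501 bp in the weakest.

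Peaks of the list filled a wedge in a plot of fold against −log10 q, with a sharp upper edge and a scatter below it. Taking as the edge the highest fold of any peak with the same or a lower −log10 q, 42.2% (39.9–44.4) of members lay within 10% of it, against 51.2% (49.9–52.6) of the other peaks. Among peaks in the strongest 3 parts the shares were 20.3% (14.3–27.4) of 158 members and 46.5% (44.3–48.7) of 2009 other peaks. A peak far below the edge reached its −log10 q with a smaller ratio over background than most peaks of that −log10 q. The background values are not in the lists, so they were not analysed here.

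**Figure D2:**
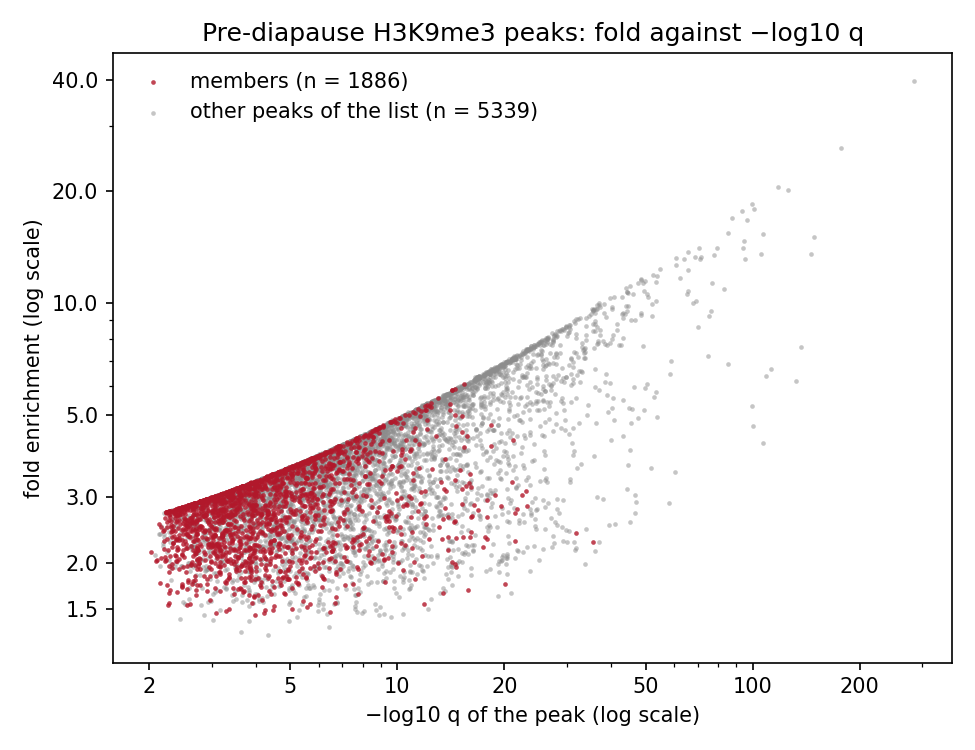
Fold enrichment against −log10 q, both on log scales, for the 1886 members and the 5339 other peaks of the pre-diapause H3K9me3 list, each point 1 peak, members drawn on top. The members lie in the lower left, up to a fold of 6.04 and a −log10 q of 35.4, and their points with a −log10 q over 18.4 sit well under the upper edge.

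The strongest members by −log10 q, named after their values were seen, were short peaks of modest fold. The highest value, 35.4, belonged to scaffold NW_021132999.1 at 2795–3118, with a fold of 2.28, on a scaffold with no peak of any other list. NW_021132498.1 at 116851–117180 followed with a −log10 q of 31.8 and a fold of 2.41, and its nearest peak of another list was 13456 bp away. NW_021133029.1 at 49940–50254 had the lowest fold of the 13, 1.75, at a −log10 q of 20.0. The 13 were between 305 and 428 bp wide and each lay on a scaffold of its own.

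Ranked by fold, a different set came first. The highest fold, 6.04, was at NW_021131151.1 1086890–1087249, with a −log10 q of 15.4. Next came a pair on NW_021132402.1 at 106826–107175 and 108379–108717, with folds of 5.87 and 5.83, widths of 350 and 339 bp and 1203 bp between them. NW_021131699.1 at 202–530, near the start of its scaffold, had a fold of 5.83. Its nearest peak of another list was a strong one, a non-diapause H3K9me3 peak with a fold of 14.2 that lay 18423 bp away.

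The remaining 6 of the 10 highest folds lay close together, between 5.28 and 5.57. They were NW_021131115.1 556164–556510, NW_021134896.1 993–1475, NW_021136468.1 51006–51401, NW_021135568.1 129621–130072, NW_021131041.1 648294–648680 and NW_021137400.1 247943–248326. All 10 were under 500 bp wide, and the nearest peak of another list was between 11558 and 61263 bp away. None of these strong members was thus a near miss of the overlap rule. For 6 of the 10 the nearest peak of another list was one of pre-diapause H3K27me3. That is the longest of the other 5 lists, with 6539 of their 22093 peaks, and the pair on NW_021132402.1 had the same peak nearest. The matching share over all members is not given here, so no link is read from this count.

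The widest members were calls of low to middling strength, in parts 6 to 9 of the 10 parts by −log10 q. NW_021132152.1 at 975574–983037 was 7464 bp wide, with a fold of 3.47 and a −log10 q of 5.03, and was the widest peak of the whole pre-diapause H3K9me3 list on scaffolds. NW_021131384.1 at 334713–339054 was 4342 bp wide, with a fold of 2.96 and a −log10 q of 3.42. NW_021133302.1 422175–425063, NW_021131844.1 258076–260962 and NW_021130637.1 323609–326410 were between 2802 and 2889 bp wide, with folds of 2.60, 2.65 and 3.50 and a −log10 q of 4.03, 6.20 and 5.65. Such widths were rare. Wider than 1000 bp were 209 members, or 11.1% (9.70–12.6), against 20.3% (19.2–21.4) of the other peaks and 17.9% of the whole list.

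Among places of 1 mark called at 1 stage alone, the members had the largest median width of the 4 H3K9me3 and pre-diapause H3K27me3 classes compared, and places with both marks at pre-diapause alone were wider. Places with both marks at pre-diapause alone, 543 in number and measured over the joined peaks, had a median width of 513 bp (487–534). The 1122 places of H3K27me3 at pre-diapause alone had 365 bp (359–378), the 505 of H3K9me3 at diapause alone had 434 bp (411–466), and the 221 of H3K9me3 at non-diapause alone had 380 bp (362–400). The intervals of the members and of the diapause class overlapped. Wider than 1000 bp were 11.0% (8.54–13.99), 4.10% (3.02–5.43), 3.17% (1.82–5.09) and 0.452% (0.0115–2.50) of them in that order. The members' share of 11.1% was thus close to that of places with both marks and above the intervals of these 3 single-mark classes. The classes come from different lists and were not tested against each other. Median peak width was 537 bp in the pre-diapause H3K9me3 list and 514 bp in that of pre-diapause H3K27me3. It was 522 bp for diapause and 496 bp for non-diapause H3K9me3. Against the other peaks of their own list, members had 453.5 against 572 bp. The H3K9me3 places at diapause alone had 434 against 539 bp, and the H3K27me3 places at pre-diapause alone 365 against 551 bp.

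A low share of strong calls was also found for 2 of these classes in their own lists. The H3K27me3 places called at pre-diapause alone made up 0.153% (0.00388–0.850) of the strongest 10% of their list, which is 1 peak, and 39.4% (35.7–43.3) of the weakest 10%. The H3K9me3 places called at diapause alone made up 1.43% (0.465–3.30), or 5 peaks, and 32.8% (27.9–37.9). In those 5 the median fold was 3.42, against 4.31 in the other peaks of the strongest 10% of the diapause list, and the single H3K27me3 peak had a fold of 3.37, against 6.13 in the other peaks of the strongest 10% of its list. For the members these medians were 2.84 and 6.62, as given above. Each list has its own scale of fold, so only gaps within a list are meant.

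Few members came close to failing the rule of no shared base. A peak of another list lay within 1 kb of 113 members, or 5.99% (4.96–7.16), within 200 bp of 11 and within 10 kb of 689, or 36.5% (34.4–38.8). The median gap to the nearest such peak was 16507 bp, and 114 members had none on their scaffold. Just inside the rule was NW_021130921.1 at 390441–390913, with 14 bp between it and a diapause H3K9me3 peak; its fold was 2.31 and its −log10 q 3.79. NW_021134200.1 at 390355–391188, fold 1.95, was 34 bp from a diapause H3K9me3 peak, and NW_021131446.1 at 399598–400375, fold 3.04, was 39 bp from a pre-diapause H3K27me3 peak. Just outside was a peak at NW_021137026.1 29048–29493, fold 2.78, that shared 9 bp with a pre-diapause H3K27me3 peak. NW_021131714.1 123619–123969, fold 2.13, shared 53 bp with such a peak, and NW_021135517.1 224481–225011, fold 2.83, shared 78 bp with a diapause H3K27me3 peak. Only 4 of the 5339 other peaks had a largest overlap under 100 bp, and the median of the largest overlap was 494 bp. Measured against the length of the peak, 296 of the 5339 had a largest overlap under 50%. When an overlap counted only from 50% of the peak, 2158 peaks met the rule, and the share with a peak of another list within 1 kb was 17.8% (16.2–19.5), since partly overlapping peaks then count as members.

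The limit set by the authors' calling was closer to many members. The weakest members were NW_021133781.1 238427–238952, with a −log10 q of 2.03 and a fold of 2.14, and NW_021130935.1 3784–4254, with 2.09 and 2.03. The lowest −log10 q in the 5 other lists lay between 2.01 and 2.06, and weaker places are not in the lists. A place without a peak in a list therefore had no call there, and may still have carried the mark. The pre-diapause H3K9me3 list was also the longest of that mark, with 7225 scaffold peaks against 4483 at non-diapause and 3504 at diapause. With every list, the members' own included, shortened to its 3504 strongest peaks, 470 of the 3504 pre-diapause H3K9me3 peaks met the rule. In the full list it was 1886 of 7225, and other classes were not counted in the shortened lists.

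Of the 5 other lists, that of diapause H3K9me3 most often had a peak within 1 kb of a member, and that of pre-diapause H3K27me3 most often had one within 10 kb. A diapause H3K9me3 peak lay within 1 kb of 61 members, or 3.23% (2.48–4.14), and a non-diapause H3K9me3 peak within 1 kb of 33, or 1.75% (1.21–2.45). Peaks of H3K27me3 within 1 kb were found for 12 members in the non-diapause list, 40 in the pre-diapause list and 18 in the diapause list. The diapause H3K9me3 list is the shortest of the 6, with 3504 peaks, and the pre-diapause H3K27me3 list is the longest of the other 5, with 6539. At 1 kb the order of these counts was thus not that of list length. The counts at 1 kb by list were made for members only, so whether other places show the same order is not known. Within 10 kb pre-diapause H3K27me3 came first with 463 members, followed by non-diapause H3K9me3 with 368 and diapause H3K9me3 with 359. Within 200 bp, 8 members had a diapause H3K9me3 peak, 3 had a pre-diapause H3K27me3 peak and none had a peak of the remaining lists. The closest non-diapause H3K9me3 peak was 283 bp away.

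Within 10 kb, members and the other places of their list had neighbours of the other lists at like or lower rates. A pre-diapause H3K27me3 peak outside the own place lay within 10 kb of 24.8% (22.9–26.8) of members, against 28.7% (27.5–29.9) of the 5312 other places with a pre-diapause H3K9me3 peak. For non-diapause H3K9me3 the shares were 19.8% (18.1–21.7) and 23.4% (22.3–24.6), and for diapause H3K9me3 19.4% (17.6–21.3) and 18.6% (17.5–19.7). Neighbours of H3K27me3 were found at 14.3% (12.8–15.98) and 18.3% (17.3–19.4) for the non-diapause list, and at 15.1% (13.5–16.8) and 16.8% (15.8–17.9) for the diapause list. For pre-diapause H3K9me3 itself the order turned, with 39.3% (37.1–41.5) of members and 34.0% (32.7–35.3) of the other places. Members thus had a further pre-diapause H3K9me3 peak nearby somewhat more often, and peaks of both non-diapause lists and of pre-diapause H3K27me3 somewhat less often, while for both diapause lists the intervals overlapped.

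**Figure D3:**
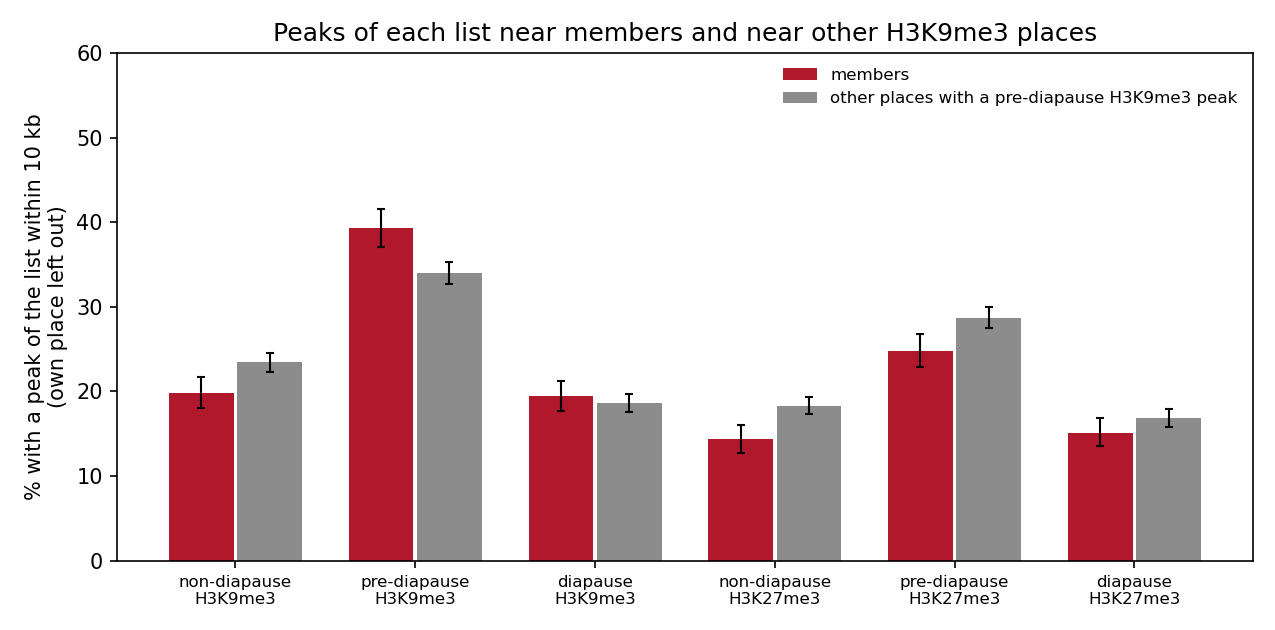
Share of the 1886 members and of the 5312 other places with a pre-diapause H3K9me3 peak that had a place with a peak of each list within 10 kb, the own place left out, with exact 95% binomial intervals. Members are above the other places for pre-diapause H3K9me3 (39.3% against 34.0%) and below them for non-diapause and pre-diapause H3K27me3 and for non-diapause H3K9me3.

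Members were spread over 777 of the 1418 scaffolds with any place. A single member was found on 352 of these, and on 101 scaffolds, with 114 members between them, members were the only places. The 10 scaffolds with the most members held 107, or 5.67% (4.67–6.81) of them, and 2.998% (2.66–3.37) of the other places. They were picked for their members, so the excess follows in part from the choice. Across the 1418 scaffolds the number of members and of other places had a Pearson r of 0.52 and a Spearman rho of 0.52, and both counts share the length of the scaffold. The most members, 14 of 43 places, were on NW_021132152.1, whose places reach to 1.13 Mb. Their folds ran from 1.48 to 3.86, their −log10 q from 2.67 to 10.1 and their widths from 318 bp to the 7464 bp named above.

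A portion of the members came in groups. Another member lay within 10 kb of 369 members, or 19.6% (17.8–21.4), and within 1 kb of 93, or 4.93% (4.00–6.01). In lists of equal length, where 470 places met the rule, the share within 10 kb was 2.98% (1.64–4.95). Among the places of H3K27me3 at pre-diapause alone, a smaller class, the shares were 12.6% (10.7–14.6) and 0.891% (0.428–1.63), and among those of H3K9me3 at diapause alone 5.54% (3.72–7.91) and 0.396% (0.0480–1.42). The 5312 other places with a pre-diapause H3K9me3 peak are a larger class. Another of them lay within 10 kb in 27.4% (26.2–28.6), above the members' share, and within 1 kb in 3.01% (2.57–3.51), below it. These places hold 5339 peaks of the list, and peaks joined into 1 place did not count as neighbours of each other. Each member is 1 peak, so the 2 shares are not of like units. A larger class has nearer neighbours by number alone, and the part this plays was not tested. Peaks of 1 list were never closer than 530 bp in the pre-diapause H3K9me3 list and between 601 and 622 bp in the other 5. Counted along the scaffolds, 725 members, or 38.4%, stood in runs of 2 or more places that were all members. There were 253 runs of 2, 56 of 3 and 11 of 4 or more. Members were 17.2% of all places, so some runs arise from their number alone, and the part this plays was not tested.

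**Figure D4:**
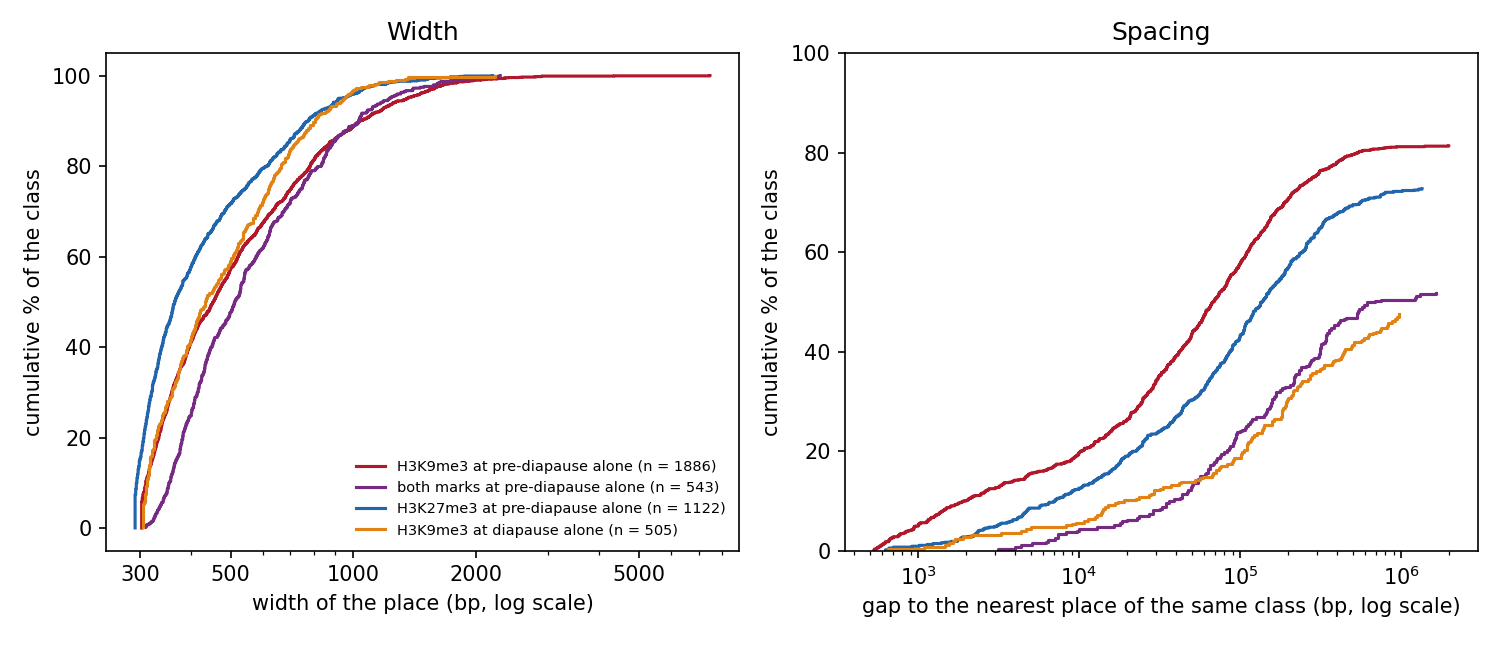
Cumulative share of the places of 4 classes by width (left) and by gap to the nearest place of the same class (right), both in bp on log scales; a curve on the right ends below 100% because some places have no other of their class on their scaffold. The members' spacing curve lies left of the others, with 4.93% within 1 kb and 19.6% within 10 kb, in the class with the most places.

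The densest group lay on scaffold NW_021135248.1. Its first 100 kb held 10 members among 16 places, the most of any 100 kb window, where 1 other window had 6 and 4 had 5. These 16 were all the places of the scaffold, and the last of them ended at 79009. The 10 members lay between 54193 and 79009, a stretch of 24.8 kb, with gaps of 625 to 4480 bp between neighbours, and 7 of them formed the longest run of members of the study. Their folds were alike, from 2.16 to 2.84 with a median of 2.48, and their −log10 q ran from 2.66 to 7.95, with 7 of 10 at 3 or more. Within the stretch 1 place had peaks of all 3 H3K9me3 lists and of pre-diapause H3K27me3, with folds of 1.94, 2.33 and 1.96 for H3K9me3 in stage order. A diapause H3K9me3 peak with a fold of 2.40 lay at 77553–78168, between the last 2 members. H3K27me3 was called in the stretch only at that shared place. The next longest runs held 6 members, on NW_021137634.1, and 5 each, on NW_021131134.1 and NW_021131674.1.

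**Figure D5:**
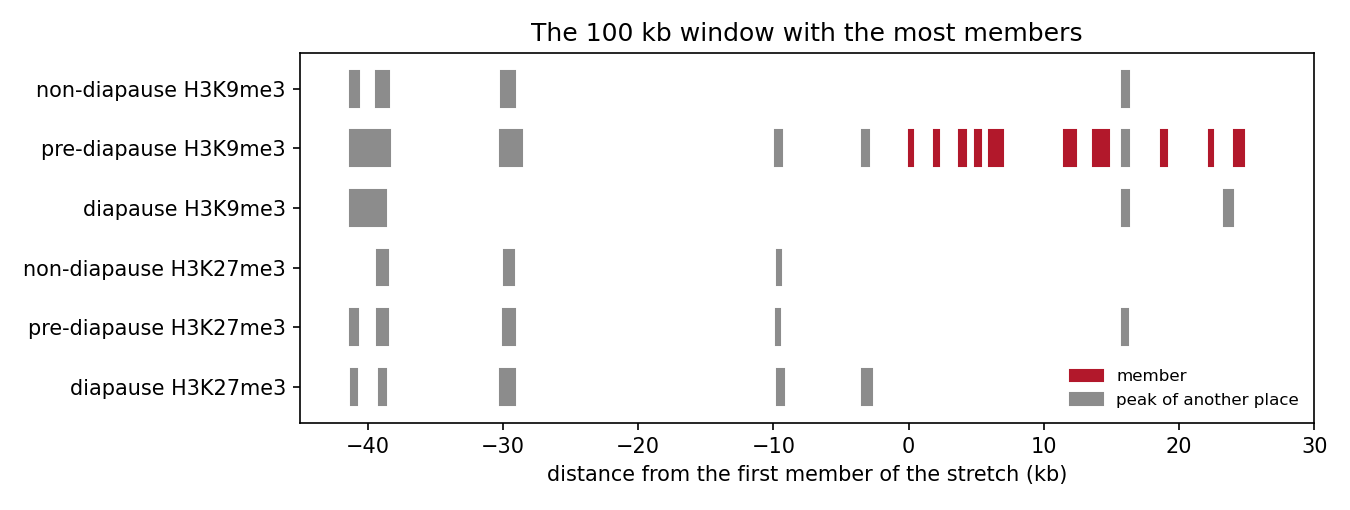
Peaks of the 6 lists in the 100 kb window with the most members, by distance in kb from its first member; members are in red and peaks of other places in grey, each drawn to its width. The 10 members follow one another over 24.8 kb in the pre-diapause H3K9me3 row, while the other rows have at most 2 peaks in that stretch.

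Members close to each other had similar folds. Over the 153 pairs of consecutive members up to 5 kb apart, log2 fold had a Pearson r of 0.57 (Spearman rho 0.55) and a median absolute difference of 0.16. Over the 270 consecutive pairs more than 20 kb apart, r was -0.05 and the median difference 0.33. Among the other peaks of the list the near pairs, 444 in number, had an r of 0.35 and a median difference of 0.39. Their 2045 pairs more than 20 kb apart had an r of -0.01 and a median difference of 0.49. Near pairs were thus more alike than far pairs in the rest of the list too. In the 261 near pairs of 1 member and 1 other peak r was 0.22. Members of a pair share library and scaffold, their folds span a narrower range than those of the other peaks, and a member can stand in more than 1 pair, so these are descriptions with no test. Grouped members were not stronger. The 293 with another member within 5 kb had a median fold of 2.72, a −log10 q of 3.80 and a width of 520 bp, against 2.84, 4.31 and 438 bp in the 1593 without.

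The starts of scaffolds held a small number of members. Within the first 1 kb of a scaffold began 68 members, or 3.61% (2.81–4.55), against 2.79% (2.36–3.26) of the other places with a pre-diapause H3K9me3 peak, an interval that overlaps the members', and 2.27% (1.97–2.60) of all other places. The share was 1.84% (0.887–3.36) for places with both marks at pre-diapause alone, 1.07% (0.554–1.86) for H3K27me3 at pre-diapause alone and 3.96% (2.44–6.05) for H3K9me3 at diapause alone. Those 68 members had a median fold of 3.20, against 2.80 in the 1818 others, a median −log10 q of 5.66 against 4.12 and a median width of 393.5 against 457 bp. Scaffold lengths were not used here, so the far ends could not be looked at in the same way.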

How the data were processed

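ChIP-seq of H3K9me3 and of H3K27me3 was done on heads at 3 stages, and the titles of the samples gave stage and mark. The submitters' processing notes name Bowtie2 and MACS2, along with Picard, deepTools and ChIPseeker, but no versions. The build, the background used for calling and any pooling of libraries are not given in the sources used here. The 6 deposited lists have no header and were read as the broad-peak layout: the fold is the authors' ratio over background, and the deposited −log10 p and −log10 q are those of their peak caller. The deposited score was 10 times the −log10 q with decimals dropped for 29324 of 29330 peaks. Positions are written 1-based, with the deposited starts shifted to count that way and the deposited ends unchanged.

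Peaks on the NC_ sequence, 12 in all, were left out. The rest were joined into places where they shared at least 1 bp and classed by the lists present. Gaps, runs, windows of 100 kb and 10 parts by −log10 q were then counted. The joining and classing of places were checked on simulated data, as was that gaps from members to other lists were above 0. Runs, windows and the 10 parts were not checked in this way. Depth is unknown, so intervals cover counting error only. Named are the 10 members of highest fold, the 5 widest, the 3 just inside and 3 just outside the overlap rule, the 2 weakest, and the scaffold and window with most members. The 13 members in the strongest 10% by −log10 q, the other peaks in their −log10 q range, the upper edge of fold, the runs and the pairs of neighbours were chosen after seeing the data. The members, lists and comparisons were chosen with earlier results of these data known. The RefSeq gene table used here (17154 genes) places 0 of them on a named sequence and no genome sequence was used, so genes near members and their bases were not analysed here. Alternatives were a stricter −log10 q, lists of equal length, another joining or overlap rule, and leaving lists out. Python 3.11.15, numpy 2.4.6, pandas 2.3.3, scipy 1.17.1 and matplotlib 3.10.9 were used.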

Additional observations from a re-analysis of the deposited data

How the results depend on the processing

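Peak lists give calls without read totals, so depth limits every statement on absence, and 1 list a group leaves all values without replicate error. No paired analysis was possible because each mark and stage had 1 list and no value came from a test. Of 49 values under 7 alternatives 24 stayed within the interval of the value reported, or within 1.5 times the count, and 25 moved; the cause was not tested unless the alternative's construction sets it. The number of members was between 1698 and 2756 under 6 of them and came to 470 with every list shortened to 3504 peaks. Leaving lists out, or counting overlaps only from 50% of the peak, cannot lower this number. The direction of those changes was thus set by construction. In the lists shortened to 3504 peaks the median fold of the 470 places was 3.57, the median −log10 q 8.67 and the median width 393.5 bp. Of these places 4.26% had a peak of another list within 1 kb and 2.98% had another of them within 10 kb. The rule was applied anew to the shortened lists, so places can meet it there that are not among the 1886 members. With −log10 q of at least 3 in every list the medians were 2.94 and 4.67, and the shares 4.06% and 16.2%. A −log10 q of at least 3 was reached by all members under both (100%), by construction. With the H3K9me3 lists alone the median fold was 2.93, the median −log10 q 4.51, the share of at least 3 82.6% and the share within 1 kb of another list 3.81%. Without the diapause H3K9me3 list these were 2.73, 4.45, 82.4% and 3.37%, with a width of 476 bp and 22.1% near another member. Joining peaks up to 500 bp apart gave 4.47% within 1 kb. Counting overlaps only from 50% of the peak gave a width of 495 bp and 17.8%.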
